A study of Mus musculus with 13 samples.

Results

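The common γ chain receptors and the JAK-STAT proteins beneath them were described through 9 genes in CLPs sorted from adult mouse BM. The members were Il21r, Il2rg, Il7r, Il2rb, Il4ra, Jak1, Jak3, Stat3, and Stat5b, chosen by gene name, and all 9 were found among the 24972 genes of the deposited values. The libraries, 1 for each mouse, came from 5 WT, 5 Notch1+/-, and 3 Notch1+/ΔTAD animals and were made by a strand-specific 3′ method. All mice were C57BL/6 adults of 6 to 12 weeks with no treatment. WT mice carry both Notch1 alleles, Notch1+/- mice carry 1, and in Notch1+/ΔTAD mice 1 allele encodes a protein without the transactivation domain (TAD), so that both mutants keep 1 WT allele. The mutations are in the germ line, so all cells of the animal carry them. CLPs, the common lymphoid progenitors, were gated as DAPI-/Lin-/Sca1Lo/cKitLo/CD127+/CD135+. CD127 is the protein of Il7r, so the sort selected for 1 member of the set.

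Receptors for IL-2, IL-4, IL-7, IL-15, and IL-21 share a subunit, the common γ chain encoded by Il2rg, and each adds at least 1 chain of its own. JAK1 binds the cytokine-specific chain and JAK3 binds the γ chain, and once the cytokine joins the chains the kinases phosphorylate STAT proteins, which move to the nucleus and activate transcription. IL-7 signals mainly through STAT5 and is required for lymphoid progenitors in mouse BM, whereas IL-21 signals mainly through STAT3 and IL-4 through STAT6.

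Values are TPM, length-scaled transcript abundances that sum to 1000000 in each library. Between 2818 and 4736 genes reached 1 TPM in a library, and every Notch1+/ΔTAD library (3984 to 4663 genes) exceeded every WT library (3179 to 3855 genes). Zeros were frequent also in genes that every cell uses. Of 15 such genes, 8 were listed at 0 in at least 1 library, among them Gapdh in 2, Polr2a in 3, and Tbp in 9. A member at 0 is therefore described as listed at 0 and no linear fold is given against it. Differences on the log2(TPM + 1) scale that involve such libraries depend on the pseudocount of 1. Read depth, which TPM do not retain, is unknown. Fewer cells expressing a gene and less RNA per cell cannot be told apart in these bulk libraries. Of the CLP markers, Flt3, which encodes CD135, and Dntt, the template-independent polymerase of lymphoid progenitors, were above 1 TPM in 13 of 13 libraries, with medians of 142 and 4112 TPM. Rag1 reached 1 TPM in 10 libraries, whereas Kit and Ly6a, which encodes Sca1, both proteins of the sort gate, did so in 6 and 5. The T and NK markers Cd3e, Cd3g, Cd8a, Cd2, Klrb1c, Ncr1, and Gzma were at 0 in all 13 libraries. Cd4 was listed in 2, WT libraries 2 and 10, at 106 and 187 TPM, and was at 0 in every mutant library. Cd3d was listed only in WT library 1, at 0.736 TPM. Nkg7 was listed in 5, at up to 1122 TPM in WT and 262 TPM in Notch1+/ΔTAD. Of 6 erythroid genes, only Hba-a1 was listed, at 17.6 TPM or less.

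Il21r and Il4ra, the ligand-specific chains of the IL-21 and IL-4 receptors, are neighbours on chromosome 7. In the GENCODE M21 annotation of GRCm38, Il4ra runs from 125552120 to 125579474 and Il21r from 125603429 to 125633570, both on the plus strand. No other protein-coding gene lies in the 23954 bases between them. Il4ra has 11 exons and a 3′ UTR of 2423 bases and overlaps Gm44876 on the other strand, and Il21r has 9 exons and a 3′ UTR of 582 bases and overlaps no gene. The sequences just before their starts are given because the libraries of WT and Notch1+/ΔTAD CLPs separated on these 2 genes. They are RefSeq sequences on GRCm38.p6, 5′ to 3′ on the plus strand. For Il21r the 250 bases at chr7:125603179-125603428 are shown, and for Il4ra the 99 bases at chr7:125552021-125552119, the portion of its RefSeq promoter window outside the GENCODE gene.
Il21r: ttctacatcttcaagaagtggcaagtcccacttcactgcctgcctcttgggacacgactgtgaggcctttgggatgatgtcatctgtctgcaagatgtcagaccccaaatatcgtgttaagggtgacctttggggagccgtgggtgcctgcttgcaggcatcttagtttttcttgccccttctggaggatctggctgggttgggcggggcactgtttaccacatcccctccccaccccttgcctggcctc
Il4ra: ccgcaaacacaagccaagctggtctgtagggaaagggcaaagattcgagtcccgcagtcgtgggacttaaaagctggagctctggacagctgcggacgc
The whole 250-base windows were searched on both strands for TGGGAA, the core bound by RBPJ, the DNA-binding partner of Notch, and for the STAT motif TTCNNNGAA and its form with 1 more base between the arms. Neither gene's window held a match, which says only that these letters are absent from these bases. Over 32851 RefSeq promoter windows of the same length, 21.6% held TGGGAA, 7.02% held TTCNNNGAA, and 5.85% held the longer form.

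Il4ra was listed at 0 in all 5 WT libraries, as were 22.7% of the 10149 genes above 0 in some library. Notch1+/- libraries 4, 5, 6, 12, and 13 had 173, 139.7, 114, 0, and 26.0 TPM of Il4ra, respectively. In Notch1+/ΔTAD libraries 7, 9, and 14 it had 39.2, 26.8, and 48.0 TPM. Thus 7 of 8 mutant libraries listed the gene and no WT library did, and the Notch1+/ΔTAD and WT libraries did not overlap, as was true of 3.12% of all genes tested.

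The difference in mean log2(TPM + 1) of Il4ra between Notch1+/ΔTAD and WT was 5.25 (standard error 1.33, 95% interval 2.39 to 8.10). Its adjusted p was 0.418 by limma with Benjamini-Hochberg adjustment over 4737 genes, so it did not pass the threshold of 0.05, and it ranked 14th by p-value. With a 2-sided exact permutation test the p was 0.0179, the smallest that the 56 splits of 3 and 5 libraries allow, and 0.791 after the same adjustment. Il4ra met the minimum for the test, 1 TPM in 3 libraries, through the Notch1+/ΔTAD libraries alone, so a difference was built into its being tested. In Notch1+/- against WT it fell below the minimum of 1 TPM in 5 libraries. There the exact permutation test gave p = 0.0476 for a difference of 5.23, unadjusted, where 252 splits allow 0.00794. With all genes above 0 tested, its limma adjusted p in this comparison was 0.709, and 0.892 in the other alternative that tested it.

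Between the mutants, the mean log2(TPM + 1) of Il4ra was 5.25 in Notch1+/ΔTAD and 5.23 in Notch1+/- libraries. The difference was 0.01, with a standard error of 1.84 and a 95% interval of -3.81 to 3.84, which is too wide to call the levels equal. Both comparisons with WT rest on the same 5 libraries at 0. With the 8 mutant libraries taken as 1 group, a contrast chosen after the values were seen, the difference was 5.24 (standard error 1.36, limma adjusted p = 0.524, rank 8 of 4307 genes). In that contrast 0 genes passed (0%) and 5.97% had an unadjusted p under 0.05. The 2-sided exact permutation p of Il4ra was 0.00544, unadjusted. Of 2302 genes at 0 in all 5 WT libraries and above 0 in some mutant library, 12 were above 0 in at least 7 of the 8 mutant libraries, a pattern written from the values of Il4ra and given as a description.

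The number of genes listed was higher in Notch1+/ΔTAD than in WT libraries, as given above. Among Notch1+/- mice, Il4ra was highest in libraries 4, 5, and 6, which had 3388, 3161, and 2818 genes at 1 TPM or more, and was listed at 0 in library 12, which had 4207. The part of the number of genes in the Il4ra values was not tested. Myeloid markers, of which S100a9 and Mpo had the highest medians over the 13 libraries, summed to 278 to 2066 TPM in WT, 8.84 to 1257 TPM in Notch1+/-, and 272 to 1714 TPM in Notch1+/ΔTAD libraries, with 7 of 8 listed in some library and Fcgr3 at 0 in all. Notch1+/- libraries 4, 5, 6, 12, and 13 had myeloid sums of 8.84, 1037, 1257, 211, and 310 TPM, respectively. B lineage markers, of which Vpreb1 and Ebf1 had the highest medians, summed to 4.95 to 897 TPM in WT, 14.5 to 1839 TPM in Notch1+/-, and 79.5 to 1555 TPM in Notch1+/ΔTAD libraries, with 7 of 8 listed somewhere and Ms4a1 at 0 in all. In the same order of Notch1+/- libraries, the B lineage sums were 966, 243, 1839, 100, and 14.5 TPM. The range of the myeloid and of the B lineage sums in each mutant overlapped that in WT, and their part in the Il4ra values was not tested.

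Il21r showed the opposite order. WT libraries 1, 2, 3, 10, and 11 had 223, 15.1, 125, 21.6, and 295 TPM, and Notch1+/ΔTAD libraries 7, 9, and 14 had 0, 0, and 0.447 TPM. Notch1+/- libraries 4, 5, 6, 12, and 13 had 191, 0, 0, 44.6, and 280.0 TPM, so this genotype held both zeros and values in the WT range. Notch1+/ΔTAD minus WT was -6.12 on the log2 scale (95% interval -9.84 to -2.41, standard error 1.73), with a limma adjusted p of 0.433. The exact permutation p was 0.0179, again the smallest possible, and 0.791 over all genes tested. Il21r met the minimum through the WT libraries alone. Notch1+/- minus WT was -2.06 (standard error 1.79, limma adjusted p = 0.993). The direct difference between the mutants was -4.07 (standard error 2.03, 95% interval -8.28 to 0.15, limma adjusted p = 0.941), so the data do not separate Notch1+/ΔTAD from Notch1+/- for this gene.

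Set beside each other, at least 1 of these 2 neighbours reached 1 TPM in every library. Il21r alone did so in 6 libraries, Il4ra alone in 5, and both in 2, Notch1+/- libraries 4 and 13. Every WT library fell in the first class and every Notch1+/ΔTAD library in the second. Notch1+/- mice fell in all 3 classes, with library 12 in the first, libraries 5 and 6 in the second, and libraries 4 and 13 in the class with both. Across the 13 libraries the Pearson correlation of log2(TPM + 1) between the pair was -0.54, a description of points that include the genotype difference itself and many zeros. It placed Il4ra 4211th among 4306 genes ranked by likeness to Il21r. Neither gene flanking the pair separated WT from Notch1+/ΔTAD libraries. Nsmce1, before Il4ra, was at 0 in every WT library and reached 1 TPM in 1 library of each mutant, and Gtf3c1, after Il21r, reached 1 TPM in 1 WT, 3 Notch1+/-, and 1 Notch1+/ΔTAD library.

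**Figure D1:**
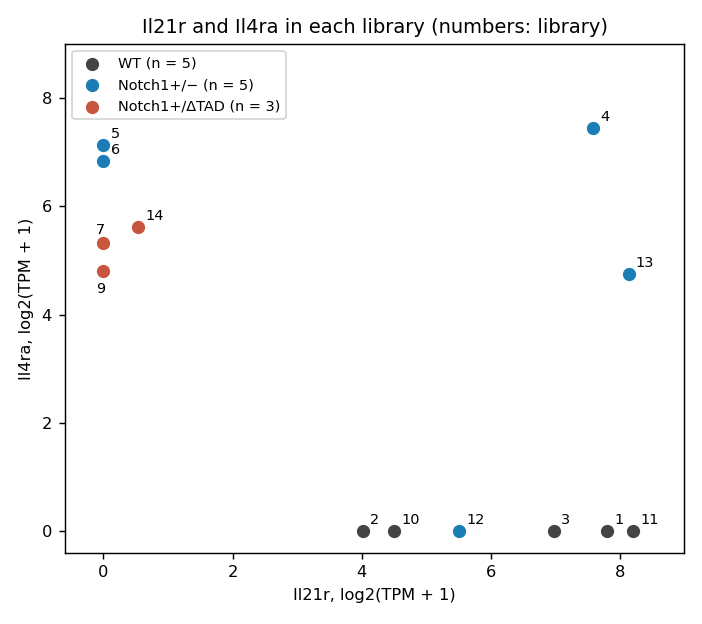
Il21r (x axis) against Il4ra (y axis), both in log2(TPM + 1), with 1 point per library, numbered and colored by genotype. The 5 WT points lie along the bottom with Il4ra at 0, the 3 Notch1+/ΔTAD points lie at the left with Il21r at or under 0.447 TPM, and Notch1+/- points occur in both places and, for libraries 4 and 13, at the upper right.

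The genes most like Il21r over the 13 libraries by Pearson correlation were Mef2a (0.85), which encodes a MADS-box transcription factor, Zdhhc4 (0.84), a palmitoyltransferase, and Tlk2 (0.83), a chromatin-related kinase, among genes with at least 1 TPM in 5 or more libraries. They were selected as the highest of 4306 values. Mef2a ranged from 2.49 to 6.72 TPM in WT libraries and was at most 0.0128 TPM in Notch1+/ΔTAD libraries. Tlk2 did not share that gap, with 23.2 TPM in Notch1+/ΔTAD library 14. Zdhhc4 was at 0 in WT libraries 2 and 10. No other member came close, the highest being Stat3 at 0.28 (rank 717) and Il2rg at 0.25.

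The shared γ chain, Il2rg, was either high or at or near 0. In WT libraries 1, 2, 3, 10, and 11 it had 628, 0, 0, 409.7, and 0 TPM. Notch1+/- libraries 4, 5, 6, 12, and 13 had 505, 0, 0.855, 145, and 510.0 TPM, and Notch1+/ΔTAD libraries 7, 9, and 14 had 840.1, 0, and 126 TPM. The γ chain thus exceeded 100 TPM in 7 libraries and was under 1 TPM in 6, and each genotype had libraries of both kinds. Its differences were 1.97 (standard error 2.81) for Notch1+/ΔTAD against WT and 1.62 (standard error 2.48) for Notch1+/- against WT, with limma adjusted p-values of 0.996 and 0.993. The gene lies on chromosome X from 101264378 to 101268255 on the minus strand, with 8 exons, and shares that strand with the overlapping Gm20489, so the reads of the 2 genes may not be separable. Of the 8 members with a RefSeq promoter window, only Il2rg held the RBPJ core, and its 250 bases at chrX:101268256-101268505 are printed for that reason, from RefSeq, GRCm38.p6, 5′ to 3′ on the minus strand, with the match in capitals.
Il2rg: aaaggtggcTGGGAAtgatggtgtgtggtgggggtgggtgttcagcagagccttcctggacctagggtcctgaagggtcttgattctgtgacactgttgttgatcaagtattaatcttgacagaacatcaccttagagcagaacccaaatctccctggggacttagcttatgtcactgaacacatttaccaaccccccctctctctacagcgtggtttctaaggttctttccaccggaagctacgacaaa
The match begins 241 bases before the start. It is a description of the sequence, which about 1 in 5 windows share (21.6%), and not a bound site.

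Il7r, the IL-7 receptor α chain, had 179, 128, 184, 9.30, and 1.07 TPM in WT libraries 1, 2, 3, 10, and 11. Notch1+/- libraries 4, 5, 6, 12, and 13 had 109.7, 84.0, 0, 44.0, and 53.9 TPM, and Notch1+/ΔTAD libraries 7, 9, and 14 had 96.8, 122, and 11.4 TPM. The 3 genotypes overlapped, whereas library number separated the WT mice, with 128 TPM or more in libraries 1 to 3 and 9.30 TPM or less in 10 and 11. In Notch1+/ΔTAD mice the library from the higher range, 14, was likewise the lowest. Among Notch1+/- mice the lowest was instead library 6, from the lower range. Library 6, from cells gated on the Il7r protein, listed the gene at 0. Log2 differences were 0.44 (standard error 1.76) for Notch1+/ΔTAD and -0.40 (standard error 1.71) for Notch1+/- against WT, with limma adjusted p-values of 0.996 and 0.993. Their direction was not stable, as the first became -0.60 with quantile normalization and the second 0.83 without Notch1+/- library 6. Il7r lies on chromosome 15 from 9505788 to 9530176 on the minus strand, has 8 exons, and overlaps no gene. Its promoter window held 1 STAT motif, TTCAGGGAA at chr15:9530010-9530018, 142 bases before the RefSeq start and within the GENCODE gene.

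Il2rb, the chain that IL-2 and IL-15 receptors add to the γ chain and a mark of NK and activated T cells, was listed at 0 in all 13 libraries. It lies on chromosome 15 from 78479256 to 78495271 on the minus strand. Il2ra, the high-affinity IL-2 receptor chain, was also at 0 in every library, and Il15ra was above 0 in 1.

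**Figure D2:**
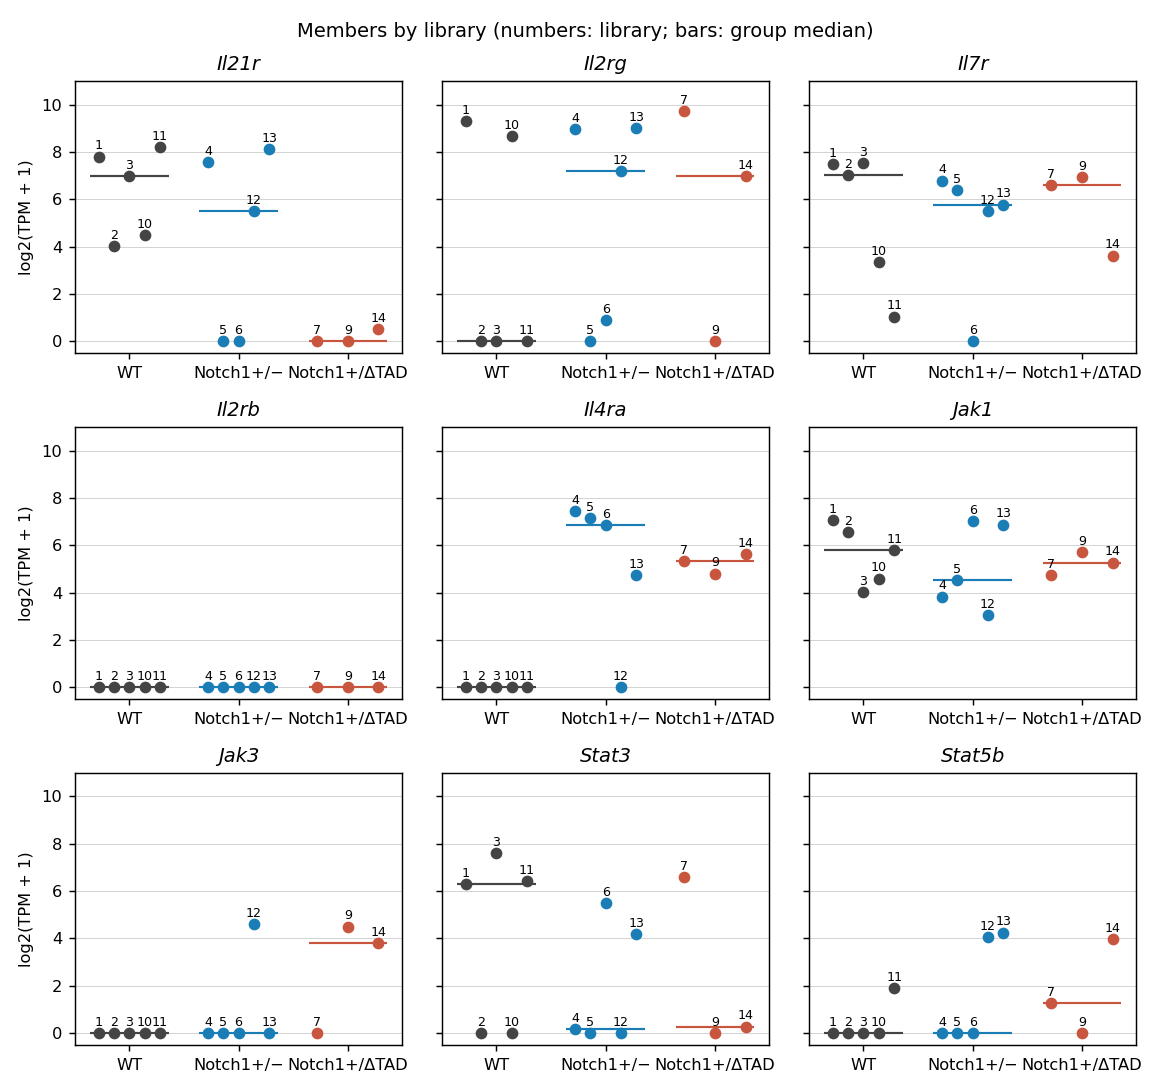
TPM of the 9 members on the log2(TPM + 1) scale (y axis) by genotype (x axis), with 1 numbered point per library and a bar at the group median. Il21r and Il4ra are the panels in which WT and Notch1+/ΔTAD points do not overlap, and Il2rb is at 0 in all 13 libraries.

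Jak1 encodes the kinase paired with the cytokine-specific chains and was the only member above 1 TPM in all 13 libraries. Values were 132, 93.2, 15.1, 23.1, and 54.8 TPM in WT libraries 1, 2, 3, 10, and 11, and 13.2, 22.1, 127, 7.35, and 115.8 TPM in Notch1+/- libraries 4, 5, 6, 12, and 13. Notch1+/ΔTAD libraries 7, 9, and 14, at 25.7, 51.5, and 37.4 TPM, lay inside the range of the other genotypes. Log2 differences were -0.36 (standard error 1.33) for Notch1+/ΔTAD and -0.54 (standard error 1.26) for Notch1+/- against WT, with limma adjusted p-values of 0.996 and 0.993. Jak1 lies on chromosome 4 from 101152367 to 101265282 on the minus strand and overlaps Gm12785 on that strand.

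Jak3, whose kinase binds the γ chain, was listed at 0 in all 5 WT libraries. It was above 0 in Notch1+/- library 12 (23.4 TPM) and Notch1+/ΔTAD libraries 9 and 14 (21.5 and 12.8 TPM), and at 0 in the other 5 mutant libraries. Jak3 was below the minimum for both comparisons with WT, and its exact permutation p for Notch1+/ΔTAD against WT was 0.107, unadjusted. Between the mutants the difference was 1.84 (standard error 1.26, limma adjusted p = 0.997). The gene lies on chromosome 8 from 71676296 to 71690575 on the plus strand and overlaps Insl3 on the same strand.

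Stat3, the main STAT of IL-21, had 77.4, 0, 192, 0, and 83.6 TPM in WT libraries 1, 2, 3, 10, and 11. Notch1+/- libraries 4, 5, 6, 12, and 13 had 0.119, 0, 43.6, 0, and 17.2 TPM, and Notch1+/ΔTAD libraries 7, 9, and 14 had 94.2, 0, and 0.210 TPM. It reached 1 TPM in 3 WT, 2 Notch1+/-, and 1 Notch1+/ΔTAD library, and the groups overlapped. Log2 differences were -1.78 (standard error 2.44) for Notch1+/ΔTAD and -2.09 (standard error 1.92) for Notch1+/- against WT, with limma adjusted p-values of 0.996 and 0.993.

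Stat5b, which encodes 1 of the 2 STAT5 proteins used by IL-7, was low throughout, with a highest value of 17.9 TPM. It was at 0 in 4 of 5 WT libraries and at 2.75 TPM in WT library 11. Notch1+/- libraries 12 and 13 had 15.5 and 17.9 TPM with the other 3 at 0, and Notch1+/ΔTAD libraries 7, 9, and 14 had 1.40, 0, and 14.8 TPM. All of the values above 2 TPM came from libraries 10 to 14. Notch1+/ΔTAD exceeded WT by 1.37 on the log2 scale (limma adjusted p = 0.973, standard error 1.01). Stat3 and Stat5b lie on the minus strand of chromosome 11, from 100885098 to 100939540 and from 100780731 to 100850724, with Stat5a between them. Stat5a overlaps Stat3 on the other strand and reached 1 TPM in 4 of 13 libraries.

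Of the 9 members, 7 were tested in Notch1+/ΔTAD against WT and 0 passed the adjusted threshold, where 0% of all genes did. At an unadjusted p under 0.05, 1 was higher (Il4ra) and 1 lower (Il21r), against 4.14% and 0.866% of all genes tested, and the same 2 were those without overlap, against 3.12% of all genes. Each of these 2 met the minimum through 1 genotype alone, so a difference was built into its being tested. The shares over all genes are therefore no measure of how unusual they are. In Notch1+/- against WT 5 members were tested and 0 passed at an adjusted or an unadjusted threshold of 0.05, where 0% and 5.35% of all genes did, and 0 lacked overlap, against 0.787%. In Notch1+/ΔTAD against Notch1+/- 8 were tested and again 0 passed either threshold, where 0% and 5.33% of all genes did, and 0 lacked overlap, against 3.06%. The median difference over all genes tested was 0.47 for Notch1+/ΔTAD against WT and -0.03 after quantile normalization. Under that scaling Il4ra differed by 4.84 and Il21r by -6.42, and the split of genes at an unadjusted p under 0.05 went from 196 higher and 41 lower to 129 and 70.

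**Figure D3:**
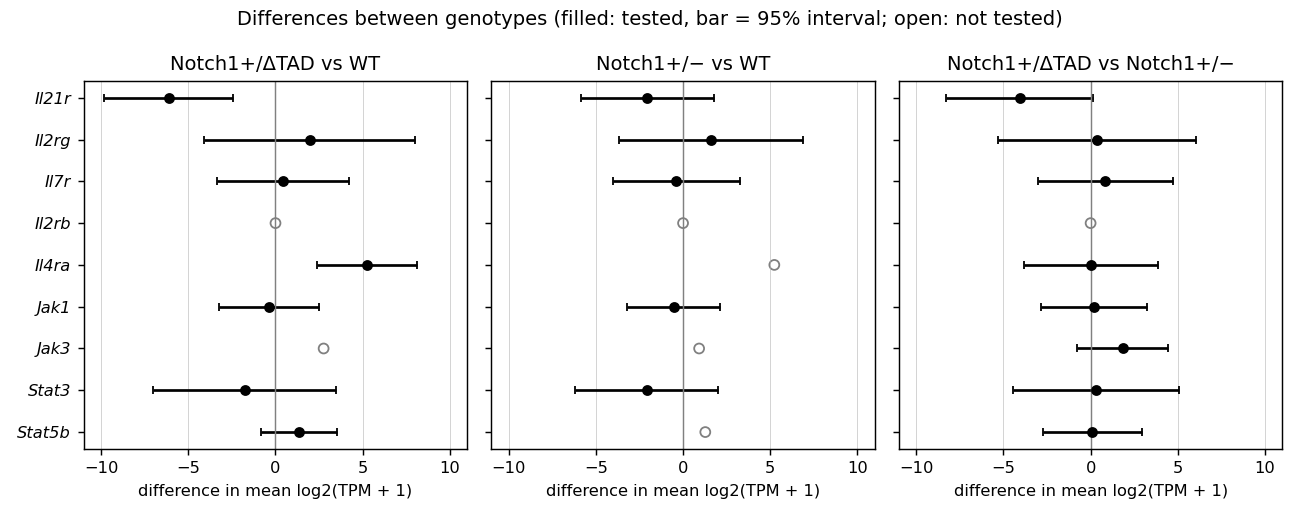
Difference in mean log2(TPM + 1) (x axis) of each member (y axis) in the 3 comparisons. Filled points were tested by limma and carry the 95% interval, and open points were below the TPM minimum. In Notch1+/ΔTAD against WT the intervals of Il21r (-9.84 to -2.41) and Il4ra (2.39 to 8.10) do not include 0, without adjustment for the number of genes. Each of these genes met the TPM minimum through a single genotype, so a difference was built into its being tested.

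By mean log2(TPM + 1), a scale on which TPM are per length although 3′ tags do not need that correction, the order in WT CLPs was Il21r (6.30), Jak1 (5.60), Il7r (5.29), Stat3 (4.06), Il2rg (3.60), and Stat5b (0.38), with Il2rb, Il4ra, and Jak3 at 0. No 2 neighbours in this order differed by more than 1 SD of their difference over the 5 libraries. The same held for the order over all 13 libraries, which began with Jak1 (5.31) and Il7r (5.24) and ended with Jak3 (0.99) and Il2rb at 0.

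The number of libraries in which all chains, kinases, and STATs of 1 pathway reached 1 TPM cannot exceed the number for its rarest part. Il7r and Il2rg both reached 1 TPM in 7 of 13 libraries, and with Jak1, Jak3, and Stat5b in 2, Notch1+/- library 12 and Notch1+/ΔTAD library 14. For IL-21, Il21r and Il2rg were together in 5 libraries, 2 WT and 3 Notch1+/-, and 0 libraries had these with Jak1, Jak3, and Stat3. For the type I IL-4 receptor, Il4ra and Il2rg were together in 2 Notch1+/- and 2 Notch1+/ΔTAD libraries, and 1 library, Notch1+/ΔTAD library 14, also had Jak1 and Jak3. Jak3 was at 1 TPM or more in 3 libraries, Stat5b in 5, Stat3 in 6, and Il2rg in 7, so Jak3 alone held the full sets to 3 libraries at most. Whether the parts occurred together more or less often than their single counts give was not tested. A library held between 3 and 7 of the 9 members at 1 TPM or more, and the WT libraries between 3 and 5.

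**Figure D4:**
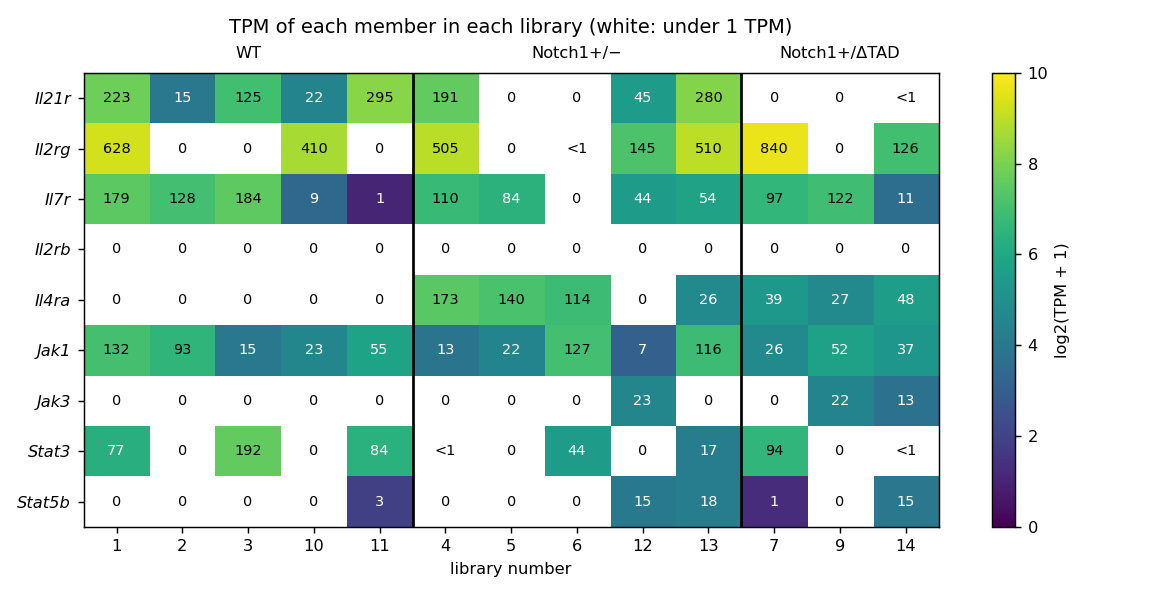
TPM of each member (y axis) in each library (x axis, by genotype), colored by log2(TPM + 1), with values under 1 TPM in white. Jak1 is filled in 13 libraries, Il4ra is white in all 5 WT libraries, Il21r is white in all 3 Notch1+/ΔTAD libraries, and the Jak3 and Stat5b lines are mostly white.

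The wider pathway was read from 68 genes in 7 groups. Of these 53 were above 0 in some library, 15 were at 0 in all 13, and 4, Ptpn1, Pim1, Ccnd2, and Ccnd3, reached 1 TPM in all 13. Over all 24972 genes, 10149 were above 0 in some library and 592 reached 1 TPM in all 13. In Notch1+/ΔTAD against WT 25 were tested, 16 with higher and 9 with lower means, and 0 passed at an adjusted or an unadjusted threshold of 0.05, where 0% and 5% of all genes did. Their median difference was 0.75, against 0.47 over all genes tested. In Notch1+/- against WT 15 were tested, with medians of -0.60 for the list and 0.06 for all genes, and between the mutants 31, with medians of 1.00 and 0.35. In these comparisons too 0 pathway genes passed either threshold, against 0% adjusted in both and 5.35% and 5.33% unadjusted over all genes.

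Of the 8 ligands, Il2, Il4, Il7, Il9, Il13, Il21, and Tslp were at 0 in all libraries, and Il15 was at 211 TPM in 1 Notch1+/- library. Crlf2, the chain that joins Il7r in the receptor for TSLP, was listed in 11 libraries, at 4.49 to 96.3 TPM in WT, 0 to 50.0 TPM in Notch1+/-, and 0, 13.9, and 18.0 TPM in Notch1+/ΔTAD libraries (log2 difference of Notch1+/ΔTAD against WT -2.58, standard error 1.74, limma adjusted p = 0.958). The kinases Jak2 and Tyk2 reached 1 TPM in 4 and 2 libraries. Among the other STATs, Stat2, which acts in interferon signaling, reached 1 TPM in 4 libraries. Stat6, the main STAT of IL-4, reached 1 TPM in 2 WT, 0 Notch1+/-, and 2 Notch1+/ΔTAD libraries.

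Of 19 inhibitors, the feedback inhibitors Cish and Socs1, both STAT targets, were at 0 in all 13 libraries. The other 17 were above 0 in some library, among them Socs2 in 7 libraries and Socs3 in 4. Socs2 was at up to 189 TPM in WT, and Socs3 at up to 77.3 TPM in Notch1+/ΔTAD libraries. The phosphatase genes Ptpn1 and Ptprc had the highest medians of this group, at 63.3 and 61.1 TPM. Ptpn1 spanned 27.3 to 93.6 TPM in WT and 20.6 to 71.5 TPM in Notch1+/ΔTAD mice. Ptpn2, whose phosphatase acts on JAK1, JAK3, and STAT proteins, was, like Il4ra, at 0 in all 5 WT libraries. Notch1+/- libraries 4, 5, 6, 12, and 13 had 0.373, 17.4, 0.518, 150, and 12.4 TPM of Ptpn2, and Notch1+/ΔTAD libraries 7, 9, and 14 had 332, 0, and 194 TPM. It was below the minimum for both limma comparisons with WT. The exact permutation p was 0.00794 for Notch1+/- against WT, the smallest that 252 splits allow, and 0.107 for Notch1+/ΔTAD against WT, both unadjusted. Ptpn2 was named because its Notch1+/- and WT libraries did not overlap, so the first of these p-values was fixed by that choice. Of all genes tested in Notch1+/- against WT, Ptpn2 not among them, 0.787% lacked overlap. Of the 2302 genes at 0 in all WT libraries, 9 were above 0 in all 5 Notch1+/- libraries, a count made after the Ptpn2 values were seen.

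Of 12 targets of STAT5 and STAT3, 3 reached 1 TPM in all 13 libraries, also where both Stat3 and Stat5b were at 0. WT library 2 was such a library, with 757 TPM of Pim1. Stat5a, the other STAT5 gene, reached 1 TPM in 2 WT libraries. The targets Bcl2l1, Pim2, Prdm1, and Irf4 were at 0 in all 5 WT libraries. A listed 0 does not show absence, and whether the targets depend on these STATs was not tested. Pim1, a survival kinase, was the highest pathway gene, at 244 to 999 TPM in WT, 75.0 to 1236 TPM in Notch1+/-, and 270.3 to 494.6 TPM in Notch1+/ΔTAD libraries (Notch1+/ΔTAD against WT -0.72, standard error 0.63, limma adjusted p = 0.984). Ccnd2, which encodes cyclin D2, was at 73.0 to 312 TPM in WT and 153 to 213 TPM in Notch1+/ΔTAD libraries, a difference of -0.12 (standard error 0.85, limma adjusted p = 0.996). Both genes have regulators outside this pathway. Of 17 other receptors that couple to JAKs, the interferon receptor genes Ifnar2 and Ifnar1 had the highest medians, 119 and 16.9 TPM, and 0 passed the test.

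**Figure D5:**
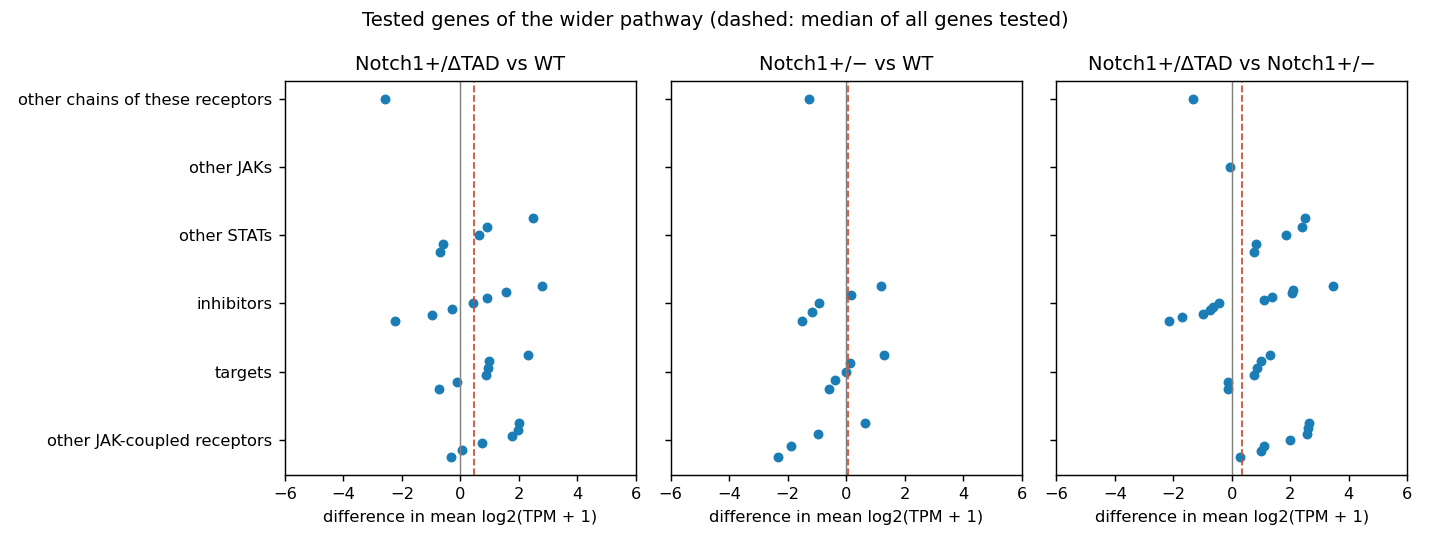
Difference in mean log2(TPM + 1) (x axis) of the pathway genes tested by limma in each comparison, by role (y axis), with 1 point per gene and a dashed line at the median of all genes tested. Points lie on both sides of the line for inhibitors and targets in Notch1+/ΔTAD against WT (median 0.47), and 0 genes passed the threshold.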

How the data were processed

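Reads were trimmed (FASTQ Toolkit) and aligned to mm10 with STAR by the authors, who deposited TPM in 2 tables, each mutant beside the same WT libraries. The tool and annotation behind the TPM, and whether strand was used in assigning reads, are not given in the sources used here. The 3′ libraries (QuantSeq) were prepared in 1 batch per the labels, and TPM divide by a length that 3′ tags do not need. Values were compared as log2(TPM + 1) with limma 3.58.1 (trend, 2-sided) in R 4.3.3, over genes at 1 TPM or more in enough libraries to fill the smaller group (5 for Notch1+/- against WT, otherwise 3), with Benjamini-Hochberg adjustment over all genes tested. The mutants were compared in a model of 13 libraries. The code was tested on simulated data. Separate animals give the spread. The members and lists were chosen with earlier results of these data known. Named pathway genes are the 2 with the highest median per role (Il2, Il4, and Il2ra tied at 0) and those without overlap between genotypes. 1 of these is not reported here. Il15, Il15ra, Stat6, Stat5a, Ccnd3, Cish, Socs1, Socs2, Socs3, Bcl2l1, Pim2, Prdm1, Irf4, and the other genes at 0 were added after their values were seen. Alternatives were other pseudocounts, filters, scalings, and models, and leaving out each library.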

Additional observations from a re-analysis of the deposited data

Results flagged for a closer look

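Of the member genes in groups of 5 mice, 20 groups were checked for 1 library far from the others by Dixon's ratio, and 2 exceeded the critical value of 0.71, where chance gives about 1 in 20. Jak3 was at 23.4 TPM in Notch1+/- library 12 with the other 4 Notch1+/- libraries at 0. Stat5b was at 2.75 TPM in WT library 11 with the other 4 WT libraries at 0. In groups made mostly of zeros a single listed value exceeds the ratio by construction.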

How the results depend on the processing

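Of 605 alternative values for 33 results, 567 were counted as unchanged and 38 reversed, 29 of these by leaving out 1 library. The 567 include every Il2rb difference, which was 0 in all runs. They also include Jak3 in Notch1+/- against WT, where the difference of 0.92 fell as low as 0 with 1 library left out. The 567 is therefore not a count of values that kept a direction. Members past the threshold were 0 in every alternative run. The Il4ra difference of Notch1+/ΔTAD against WT ran from 2.24 (pseudocount 10) to 8.53 (pseudocount 0.1), with limma adjusted p from 0.0504 without the mean-variance trend to 0.871, and Il21r from -8.77 to -3.22, with 0.129 to 0.833. Since 1 group of each is at or near 0, their direction is fixed and says nothing about stability. Without the trend, 15, 2, and 3 of all genes passed in Notch1+/ΔTAD against WT, Notch1+/- against WT, and between the mutants.

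With quantile normalization Il7r in Notch1+/ΔTAD against WT was -0.60, and between the mutants Il4ra was -0.32, Stat5b -0.067, Il2rg -0.25, and Jak1 -0.15. Between the mutants Il4ra was also -0.48 and Stat5b -0.067 with a pseudocount of 10, and Il4ra -0.10 with median-ratio scaling and with library range in the model. Leaving out 1 library gave, for Notch1+/ΔTAD against WT, -0.10 to 4.76 for Il2rg and -0.62 to 1.49 for Il7r, and for Notch1+/- against WT -1.46 to 0.83 for Il7r. Between the mutants it gave -1.72 to 3.14 for Il2rg, -0.39 to 1.88 for Il7r, -1.30 to 0.56 for Il4ra, -0.32 to 0.67 for Jak1, -1.83 to 1.46 for Stat3, and -1.02 to 0.96 for Stat5b. Il7r changed direction against WT without any 1 of Notch1+/ΔTAD libraries 7 and 9, WT libraries 1, 2, 3, 10, and 11, and Notch1+/- library 6, each in 1 of the comparisons, and Il2rg without Notch1+/ΔTAD library 7. Between the mutants, reversals followed from leaving out any Notch1+/- or Notch1+/ΔTAD library. None of these passed the threshold, and the cause was not tested. No paired analysis was made, as each library number belongs to 1 mouse and links no mice across genotypes. Without read counts, no limit can be set on a gene listed at 0.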
